A study of Mus musculus with 123 samples.

Results

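The 8 genes described here encode receptors for extracellular nucleotides in mouse sensory neurons: the ion channel subunits P2rx2, P2rx3, P2rx4, P2rx5 and P2rx6, and the G protein-coupled receptors P2ry1, P2ry2 and P2ry14. They were taken by symbol from a table of 24134 genes, and all 8 were found. P2X receptors are cation channels built of subunits that open when ATP binds, and P2Y receptors signal through G proteins on binding ATP, ADP, UTP or UDP-sugars. In the dorsal root ganglion (DRG), ATP released from damaged or stretched tissue excites sensory endings through P2X channels, and P2rx3 is a known marker of non-peptidergic nociceptors.

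The study cut the sciatic nerve on the right side of mice (sciatic nerve transection, SNT) and asked how types of DRG neuron respond, using the uncut side of operated animals as control. Neurons were picked by hand after dissociation and their polyadenylated RNA was amplified by the Smart-seq2 protocol, which has no molecular identifiers. At day 3 the mice were F1 offspring of CAST/Eij fathers and C57BL/6 mothers, 2 months old, with reads of 50 bp and L5 ganglia according to the labels. The day-7 cells came from C57BL/6 mice of both sexes, also 2 months old, with reads of 75 bp and ganglia L3 to L5. Their protocol label names 3 and 7 days together, and the titles put them at day 7. The published description names L5 ganglia in some places and L3 to L5 in others, so the level is uncertain, and it gives the F1 mice as female. Strain, sex, read length and day thus change together, and ganglion level too if the labels are right, and they cannot be told apart.

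After removal of 11 outlier cells, 106 single neurons were kept: 18 control and 41 SNT cells at day 3, and 14 control and 33 SNT cells at day 7. The published description proposes that a subset of neurons on the cut side may have been spared. Of the SNT cells, 11 at day 3 and 21 at day 7 had at most 100 CPM of the injury gene Atf3. SNT values below cover all cells of that side and may not be those of injured neurons alone. The labels tie no cell to an animal. Each side and day was therefore treated as 1 sample of cells without replicates, and values from cells carry no test. At day 7 each side holds cells of female and of male mice, but cells of 1 sex cannot be assigned to single mice. Pooled neurons of day 3 gave 3 libraries for each side, which are parts of 1 lysate. Their p-values therefore measure the spread between parts of a pool and not between animals. The column names and the identifier line of the pooled libraries pair the sides in opposite ways, and the source label calls all 6 intact. The column names were used, and under the other pairing every pooled difference below would change sign. By the column names all 8 injury genes examined were called higher on the SNT side, with a median log2 change of 5.89. Among them Atf3, a transcription factor gene induced by axon injury, had pooled means of 1466 CPM in SNT and 13.4 CPM in control libraries, and it was higher in SNT cells too, at 1476 against 17.7 CPM at day 3.

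The total count of a kept day-3 control cell ranged from 277390.5 to 1368841.9 with a median of 862619.3, and that of an SNT cell from 611647.2 to 1849130 with a median of 1323932.4. At day 7 totals ran from 510014.2 to 1018545.1 in control cells, median 738946.9, and from 261351.5 to 965291.6 in SNT cells, median 575179.4. The SNT cells were thus the deeper group at day 3 and the shallower group at day 7. The pooled SNT libraries held 1672825.8, 1148849.5 and 2003816.6 counts and the control libraries 727212, 839135.2 and 563461.6, so each SNT library was deeper than each control library. Levels below are counts scaled to a library total of 1000000 (CPM). Intervals and floors cover counting error only: floors that of reads, although amplified reads are not independent molecules, and the intervals of shares that of cells drawn, without any spread between animals.

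Pooled neurons compare the bulk level of each receptor on the cut and the uncut side at day 3. On the cut side P2rx3 and P2ry1 fell and P2rx5 rose, while the other 5 genes did not pass the test. P2rx3, the ATP-gated channel subunit of small nociceptors, stood at 291, 311 and 292 CPM in the SNT libraries and at 739.8, 818.5 and 787 CPM in the control libraries. All 3 SNT libraries lay below all 3 control libraries, and the spread within each side was small beside the gap: 298 ± 11.1 CPM against 782 ± 39.6 CPM (SD, n = 3 each). With the quasi-likelihood test of edgeR, adjusted over all genes by Benjamini-Hochberg, P2rx3 fell by 1.23 on the log2 scale (SE 0.13, adjusted p = 5.3e-10), lower in 3 of 3 SNT libraries. In bulk samples fewer cells of a type and less RNA per cell cannot be told apart.

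P2ry1, an ADP receptor coupled to Gq, stood at 5.98, 7.83 and 7.98 CPM in the SNT libraries and at 59.1, 52.4 and 58.4 CPM in the control libraries. The lowest control library was far above the highest SNT library, with means of 7.266 ± 1.12 CPM and 56.7 ± 3.67 CPM (SD, n = 3 each). It fell by 2.79 on the log2 scale in the quasi-likelihood test of edgeR, Benjamini-Hochberg adjusted (SE 0.34, adjusted p = 2.4e-08), lower in 3 of 3 SNT libraries, the greatest change among the 8 genes.

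P2rx5, a subunit whose channels carry small currents in rodents, had the opposite direction. Its SNT libraries stood at 22.7, 37.4 and 24.5 CPM and its control libraries at 8.25, 10.7 and 7.099 CPM. The sides did not overlap, and the SNT libraries were the more spread, with means of 28.2 ± 8.04 CPM and 8.69 ± 1.85 CPM (SD, n = 3 each). P2rx5 rose by 1.79 on the log2 scale in the quasi-likelihood test of edgeR, Benjamini-Hochberg adjusted (SE 0.41, adjusted p = 0.000964), higher in 3 of 3 SNT libraries.

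Thus 3 of the 8 genes were called, with a log2 change beyond 1 and an adjusted p under 0.05, where 15.9% of the 13509 genes tested were called. The median log2 change was -0.05 over the 8 genes and 0.02 over all genes tested. With scaling by library size alone the median of all genes moved to -0.14, and P2rx3, P2rx5 and P2ry1 kept their directions and calls.

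The SNT libraries lay below all control libraries for 3 of the 8 genes, against 21.3% of all genes tested, and above them for 1 of 8, against 16.8%. The gene beyond the 3 called was P2rx2, which assembles with P2rx3 into mixed channels. P2rx2 stood at 1.196, 2.61 and 4.49 CPM in the SNT libraries and at 6.88, 13.1 and 8.87 CPM in the control libraries. Its log2 difference of -1.58 (SE 0.72) missed the threshold in the quasi-likelihood test of edgeR, Benjamini-Hochberg adjusted (adjusted p = 0.11), although 3 of 3 SNT libraries were lower.

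The remaining 4 genes overlapped between the sides. P2rx4, a calcium-permeable ATP-gated channel, stood at 38.9, 40.04 and 47.4 CPM in the SNT libraries and at 45.3, 27.4 and 63.9 CPM in the control libraries, and P2rx6, a subunit that hardly forms channels alone, at 18.5, 15.7 and 20.96 CPM against 20.6, 25.03 and 12.4 CPM. Their log2 differences of 0.09 (SE 0.28) and 0.06 (SE 0.38) were smaller than their errors, and both turned negative, to -0.07 and -0.09, with scaling by library size alone. P2rx4 was also negative without the third SNT library (-0.02) or the second control library (-0.19), and P2rx6 without the third SNT library (-0.05) or the third control library (-0.14). P2ry2, a receptor for ATP and UTP coupled to Gq, stood at 19.1, 3.482 and 12.5 CPM against 15.1, 13.1 and 17.7 CPM. Its SNT libraries were the more spread, the second of them lay below all others, and without that library the log2 difference moved from -0.16 to 0.22. P2ry14, a UDP-sugar receptor coupled to Gi, was near the lower limit of these libraries, at 1.79, 1.02 and 2.99 CPM against 1.38, 0 and 5.32 CPM, with a log2 difference of 0.16 (SE 1.15). Its sign turned without the third SNT library (-0.34), the first control library (-0.05) or the second (-0.50).

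**Figure D1:**
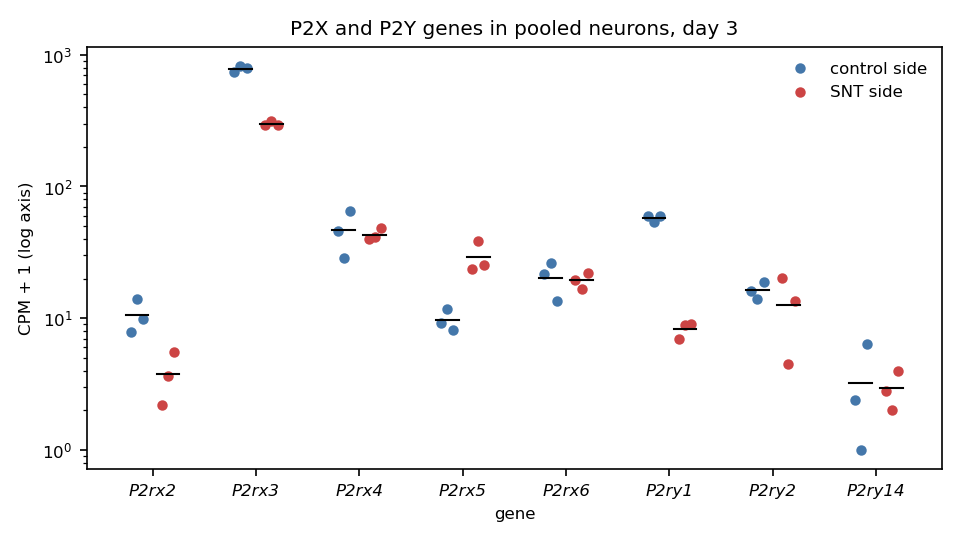
CPM + 1 on a log scale of the 8 receptor genes in the 3 SNT and 3 control libraries of pooled day-3 neurons. Points are libraries and black bars means. P2rx3 and P2ry1 lie lower and P2rx5 higher on the SNT side, with no overlap of libraries.

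Levels of different genes were compared per kilobase of merged exon sequence. On this scale the control level of P2rx3, 280.2 ± 14.2 CPM per kb, stood far above that of P2ry1, 13.2 ± 0.854 CPM per kb (SD, n = 3). Below them, in CPM per kb, came P2rx4 (6.48 ± 2.597), P2rx6 (4.85 ± 1.60), P2ry2 (3.903 ± 0.592), P2rx2 (3.74 ± 1.24) and P2rx5 (3.63 ± 0.774), and neighbours among these 5 did not differ beyond their spread. P2ry14 was lowest at 0.202 ± 0.250 CPM per kb.

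On the SNT side the order of levels per kb was changed mainly by P2rx5 and P2ry1. P2rx3 stayed first at 107 ± 3.96 CPM per kb, and P2rx5 was second at 11.8 ± 3.357 CPM per kb. They were followed, in CPM per kb, by P2rx4 (5.99 ± 0.659), P2rx6 (4.60 ± 0.663), P2ry2 (2.98 ± 1.9997), P2ry1 (1.69 ± 0.260), P2rx2 (1.07 ± 0.642) and P2ry14 (0.175 ± 0.0900). From P2rx6 to P2rx2, neighbours in this order did not differ beyond their spread. With the length of the longest transcript in place of merged exons, the order was the same on both sides, but P2rx3 moved to 431 CPM per kb on the control side and P2rx4 to 11.7 CPM per kb. On that scale P2rx5 and P2rx4 stood close together on the SNT side, at 11.8 and 10.8 CPM per kb, and P2ry1 and P2rx4 on the control side, at 14.6 and 11.7 CPM per kb.

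Single neurons show in how many cells, and at what level, each receptor was found. Over the 106 kept cells P2rx4 was above 0 in all 106 and above 10 CPM in 99. P2rx3 was above 10 CPM in 61 cells, P2rx6 in 56, P2rx5 in 52, P2ry2 in 37, P2ry1 in 33, P2ry14 in 14 and P2rx2 in 7. A cell had a median of 3.5 of the 8 genes above 10 CPM among day-3 control cells, 3 among day-3 SNT cells, 4 among day-7 control cells and 3 among day-7 SNT cells. No cell had none, and the most in any cell was 6.

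At day 3 the cells showed P2ry1 and P2rx2 lower and P2ry14 higher on the SNT side by more than 2-fold in the mean, 3 of 8 genes, where 13.2% of the 13663 genes whose mean reached 1 CPM passed that ratio. The ratio is that of mean CPM + 1, and its median on the log2 scale was 0.15 over the 8 genes and -0.04 over all genes.

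P2rx3 divided the cells more than it moved in the mean. Control cells ranged from 3.81 to 1882 CPM with a median of 699 CPM, and SNT cells from 0 to 3087 CPM with a median of 154 CPM. The means were 803 ± 729 CPM (SD, n = 18) and 891 ± 1055 CPM (SD, n = 41), a log2 ratio of 0.15, whereas the log2 ratio of the medians was -2.18. The mean thus ran against the pooled direction of P2rx3, while the median ran with it. The ranges overlapped almost entirely, but the SNT cells stood at both ends: 14 of 41 were at or below 10 CPM against 2 of 18 control cells, and 9 SNT cells were above the highest control cell. In the middle bands, 5 SNT cells lay above 10 and up to 100 CPM and 5 above 100 and up to 1000 CPM, where 4 and 5 control cells lay. Above 1000 CPM were 17 SNT cells and 7 control cells. Thus 88.9% of control cells (exact 95% interval 65.3% to 98.6%) and 65.9% of SNT cells (49.4% to 79.9%) were above 10 CPM.

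P2rx2, the partner subunit, was rare. It was above 10 CPM in 2 of 18 control cells (11.1%, interval 1.38% to 34.7%) and in 4 of 41 SNT cells (9.76%, 2.72% to 23.1%). Means were 6.80 ± 24.4 CPM and 2.59 ± 6.99 CPM, medians were 0 on both sides, and the highest cells stood at 104 and 29.5 CPM. The control cell at 104 CPM held 85.0% of the control sum, and without the highest cell of each side the log2 ratio moved from -1.12 to 0.49, so the lower mean on the SNT side rested on 1 cell.

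P2rx4 was the most even of the 8 genes. It ranged from 11.7 to 68.5 CPM in control cells, median 42.7 CPM, and from 4.73 to 120.04 CPM in SNT cells, median 45.6 CPM. Cells above 10 CPM were 18 of 18 control and 39 of 41 SNT cells, with means of 44.1 ± 16.6 CPM and 49.4 ± 24.4 CPM and a log2 ratio of 0.16. The SNT range covered the control range, and 7 SNT cells were above the highest control cell.

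P2rx5 and P2rx6 were low to moderate, and each was at 0 in part of the cells. P2rx5 reached from 0 to 55.1 CPM in control cells, median 2.37 CPM, and from 0 to 67.97 CPM in SNT cells, median 9.73 CPM, with means of 8.21 ± 13.6 CPM and 14.4 ± 16.2 CPM. Above 10 CPM were 6 of 18 control cells (33.3%, 13.3% to 59.0%) and 20 of 41 SNT cells (48.8%, 32.9% to 64.9%), and the log2 ratio was 0.75. The highest control cell held 37.3% of the control sum, and without the highest cell of each side the ratio was 1.13, past 2-fold. P2rx6 reached from 0 to 58.8 CPM in control cells, median 0, and from 0 to 54.6 CPM in SNT cells, median 0.883 CPM. Its means were 7.167 ± 14.8 CPM and 9.07 ± 13.9 CPM, a log2 ratio of 0.30, with 4 of 18 and 12 of 41 cells above 10 CPM. The highest control cell held 45.5% of the control sum and the control mean without it was 4.13 CPM. The log2 ratio was 0.80 without the highest cell of each side and 0.08 with every cell thinned to the smallest total. For both genes the sides overlapped over nearly their whole range.

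P2ry1 had the largest difference at day 3. Control cells ranged from 0 to 984 CPM with a median of 14.4 CPM, and SNT cells from 0 to 49.5 CPM with a median of 1.08 CPM. It was above 10 CPM in 10 of 18 control cells (55.6%, 30.8% to 78.5%) and in 5 of 41 SNT cells (12.2%, 4.08% to 26.2%). The means of 114 ± 290 CPM and 4.67 ± 10.03 CPM gave a log2 ratio of -4.35, but 2 control cells at 831 and 984 CPM stood above all others and above every SNT cell. Both were the cells highest in Th, a marker of C-low-threshold mechanoreceptors (C-LTMRs), at 4804 and 4165 CPM. Without these 2 cells, a comparison chosen after seeing the data, the control mean was 15.3 CPM and the log2 ratio -1.52, still past 2-fold.

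P2ry2 was lower in the SNT cells without passing 2-fold. It reached 79.4 CPM in control cells, median 5.59 CPM, and 49.4 CPM in SNT cells, median 2.27 CPM, with means of 16.5 ± 22.1 CPM and 9.75 ± 13.2 CPM and a log2 ratio of -0.70. It was above 10 CPM in 8 of 18 control cells (44.4%) and 14 of 41 SNT cells (34.1%), and the ranges overlapped from 0 up to the highest SNT cell.

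P2ry14 was low in all control cells and raised in a few SNT cells. Control cells ranged from 0 to 7.312 CPM with a median of 0, and 10 of the 18 were at 0. SNT cells ranged from 0 to 76.6 CPM with a median of 1.91 CPM, and 7 of them were above the highest control cell. The means of 2.01 ± 2.68 CPM and 7.93 ± 18.0 CPM gave a log2 ratio of 1.57. No control cell was above 10 CPM (exact interval up to 18.5%), against 5 of 41 SNT cells (12.2%, 4.08% to 26.2%). With every cell thinned to the smallest total, which removes the difference in depth between the sides, the log2 ratio was 1.17 and the shares above 10 CPM were 11.1% of control and 17.1% of SNT cells.

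**Figure D2:**
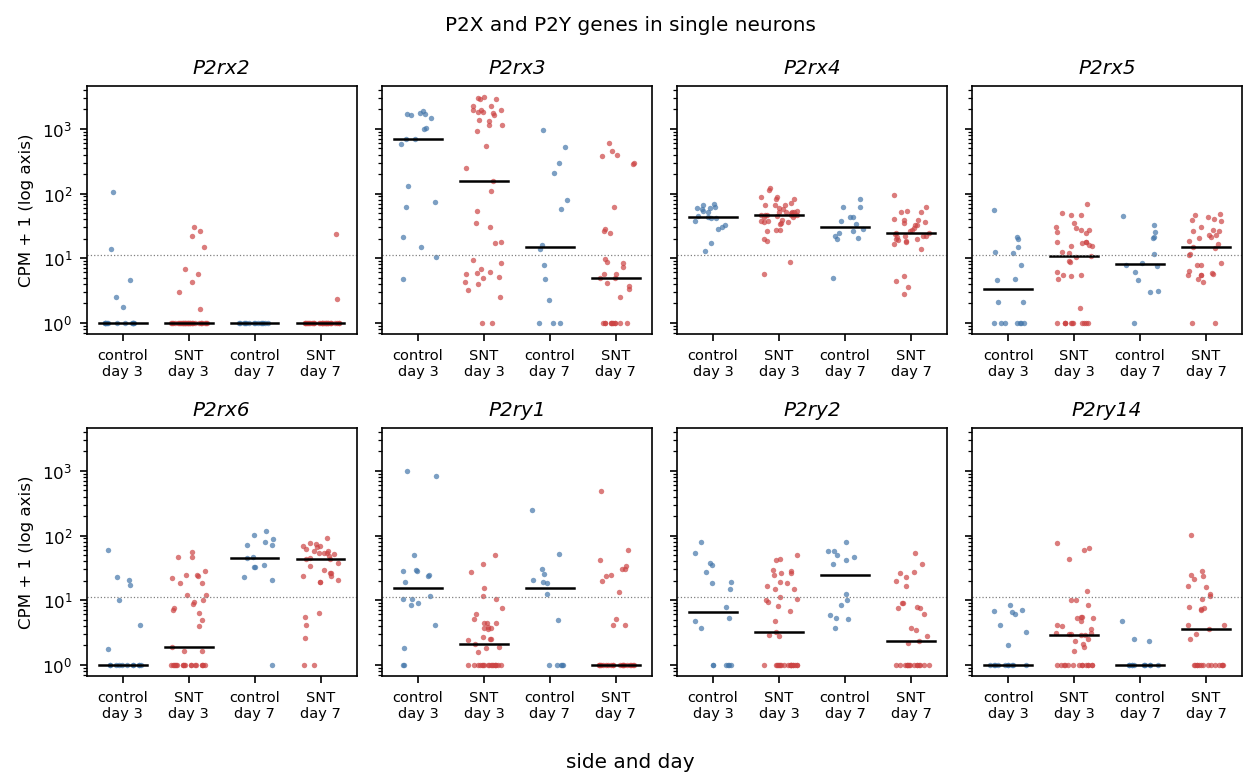
CPM + 1 on a log scale of the 8 receptor genes in single neurons, by side and day. Points are cells, spread sideways only for sight, black bars are medians and the dotted line marks 10 CPM. P2rx3 spans from 0 to 3087 CPM in day-3 SNT cells, and P2ry14 crosses 10 CPM in SNT cells alone.

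At day 7, P2ry14 was again higher and P2ry2 lower on the SNT side by more than 2-fold in the mean. These were 2 of the 7 receptor genes whose mean reached 1 CPM, against 9.86% of 13320 genes. The median log2 ratio was -0.34 over the 7 genes and -0.03 over all. P2rx2 missed the filter: it was at 0 in all 14 control cells, where 3 counts of their summed total equal 0.284 CPM, and above 10 CPM in 1 of 33 SNT cells, at 22.7 CPM.

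P2ry14 ranged from 0 to 3.83 CPM in control cells and from 0 to 102 CPM in SNT cells, with medians of 0 and 2.63 CPM. No control cell of 14 was above 10 CPM (exact interval up to 23.2%), against 9 of 33 SNT cells (27.3%, 13.3% to 45.5%), and 14 SNT cells were above the highest control cell. Means of 0.473 ± 1.09 CPM and 8.97 ± 18.5 CPM gave a log2 ratio of 2.76, and the highest SNT cell held 34.4% of its side's sum. The SNT cells were the shallower side at day 7, and after thinning all cells to the smallest total the log2 ratio was again above 1, at 3.152.

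P2ry2 was above 0 in all 14 control cells, from 2.65 to 79.3 CPM with a median of 23.6 CPM. In SNT cells it ranged from 0 to 52.1 CPM with a median of 1.34 CPM, and 15 of the 33 were at 0. It was above 10 CPM in 8 of 14 control cells (57.1%, 28.9% to 82.3%) and 7 of 33 SNT cells (21.2%, 8.98% to 38.9%), and 3 control cells were above the highest SNT cell. Means of 29.05 ± 25.7 CPM and 7.41 ± 12.3 CPM gave a log2 ratio of -1.84. P2ry2 followed Calca, a marker of peptidergic neurons, at day 7 (rho 0.69 in control and 0.60 in SNT cells). Calca was above 10 CPM in 8 of 14 control and 13 of 33 SNT cells, with means of 2482 and 2359 CPM. The part of this difference in cell mix in the ratio of P2ry2 was not tested.

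P2rx3 had a lower mean in day-7 SNT cells. Control cells ranged from 0 to 947 CPM with a median of 13.9 CPM, and SNT cells from 0 to 599 CPM with a median of 4.01 CPM. Means of 154 ± 276 CPM and 79.2 ± 162 CPM gave a log2 ratio of -0.95. The highest control cell held 43.9% of its side's sum, the control mean without it was 93.2 CPM, and without the highest cell of each side the log2 ratio was -0.56. Above 10 CPM were 8 of 14 control cells and 10 of 33 SNT cells (30.3%, 15.6% to 48.7%), and no cell on either side exceeded 1000 CPM. The sides overlapped over most of their range, with 1 control cell above the highest SNT cell.

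P2rx6 was found in nearly all day-7 cells, unlike at day 3. It was above 10 CPM in 13 of 14 control cells (92.9%, 66.1% to 99.8%) and 27 of 33 SNT cells (81.8%, 64.5% to 93.0%), with medians of 43.9 and 41.6 CPM and maxima of 116 and 89.8 CPM. Means were 53.8 ± 34.2 CPM and 38.2 ± 24.9 CPM, a log2 ratio of -0.48. P2rx5 had means of 13.2 ± 13.1 CPM and 17.5 ± 14.2 CPM and a log2 ratio of 0.38, with 6 of 14 and 20 of 33 cells above 10 CPM. The day-7 cells were also rich in Nefh, a neurofilament gene of large myelinated neurons, at a mean of 2954 CPM in control and 3219 CPM in SNT cells, against 438 and 336 CPM at day 3. The part of this difference in cell mix in the levels of the receptors was not tested, and it cannot be told apart from day, strain, sex and read length.

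P2rx4 ranged from 3.92 to 80.7 CPM in day-7 control cells and from 1.82 to 94.5 CPM in SNT cells, with means of 35.3 ± 20.5 CPM and 27.9 ± 18.7 CPM and a log2 ratio of -0.33. P2ry1 was found above 10 CPM in 8 of 14 control cells and 10 of 33 SNT cells, with medians of 14.6 CPM and 0. Its means of 29.9 ± 63.4 CPM and 23.4 ± 85.8 CPM, a log2 ratio of -0.34, rested on single cells. The highest SNT cell, at 494 CPM, held 63.9% of its side's sum, and the mean of the other SNT cells was 8.70 CPM. In control cells the mean without the highest cell, which stood at 244 CPM, was 13.4 CPM. Neither of these cells was rich in Th, at 2.39 and 1.23 CPM. The SNT cell at 494 CPM had Atf3 at 0.

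The day-7 labels name the sex of each mouse: 7 control and 16 SNT cells were female, and 7 control and 17 SNT cells male. P2ry14 was higher on the SNT side in both sexes, with log2 ratios of 3.64 in female and 1.61 in male cells, and was above 10 CPM in 6 of 16 female and 3 of 17 male SNT cells. P2ry2 was lower in both, with ratios of -2.42 and -1.39, and 1 of 16 female and 6 of 17 male SNT cells were above 10 CPM. P2rx3 had log2 ratios of -1.44 in female and -0.73 in male cells, and P2rx5 of 0.55 and 0.21. The sexes thus had the same sign for these 4 genes, and the difference between them was not tested.

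How the receptors divided among neurons was described by Spearman correlations across the cells of 1 side and day, which share a library preparation and vary in depth and are given without a test. Nefh separated P2rx6 from P2rx3. P2rx6 followed Nefh with rho of 0.82 in 18 day-3 control cells, 0.84 in 41 day-3 SNT cells, 0.60 in 14 day-7 control cells and 0.53 in 33 day-7 SNT cells. P2rx3 ran against it, at -0.53, -0.76, -0.36 and -0.17 in the same order. P2rx5 followed Nefh at 0.76 in day-3 control cells and more weakly elsewhere, at 0.33, 0.14 and 0.28.

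The same division appeared in counts of day-3 cells at a level of 100 CPM of the marker. Every P2rx6 cell above 10 CPM was also above 100 CPM of Nefh: 4 of 4 control cells and 12 of 12 SNT cells, where 8 control and 24 SNT cells reached that level of Nefh. In the 24 SNT cells above 100 CPM of Nefh the median of P2rx3 was 6.64 CPM, and in the other 17 it was 1794 CPM. Control cells were divided alike, with a P2rx3 median of 67.3 CPM in 8 cells above 100 CPM of Nefh and 1562 CPM in the other 10. P2rx3 exceeded 10 CPM in 10 of the 24 Nefh-rich SNT cells and in 17 of the 17 others.

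Among the small-neuron markers, P2rx3 followed Mrgprd, a receptor gene of non-peptidergic nociceptors, with rho of 0.71 in day-3 control and 0.44 in day-3 SNT cells. At day 7 Mrgprd was above 0 in 1 of 14 control cells, the cell highest in P2rx3, so no relation across cells could be described. All 6 day-3 control cells above 100 CPM of Mrgprd had P2rx3, at a median of 1705 CPM. In day-3 SNT cells 3 of 41 reached that level of Mrgprd, with a P2rx3 median of 1649 CPM, while 17 of these SNT cells had P2rx3 above 1000 CPM. Most day-3 cells with P2rx2 also had Mrgpra3, an itch receptor gene: 2 of 2 control cells and 3 of 4 SNT cells above 10 CPM of P2rx2 were above 100 CPM of Mrgpra3, a level reached by 4 control and 6 SNT cells. Across cells the rho was low, at 0.26 in day-3 control and 0.16 in day-3 SNT cells, and the day-7 SNT cell above 10 CPM of P2rx2 had Mrgpra3 at 0. P2rx3 was above 10 CPM in 1 of the 2 control and 4 of the 4 SNT cells with P2rx2.

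P2ry2 followed Calca, the gene of the peptide CGRP, in all groups, with rho of 0.32 and 0.43 in day-3 control and SNT cells and 0.69 and 0.60 at day 7. In day-7 control cells 6 of 7 cells above 100 CPM of Calca had P2ry2 above 10 CPM, with a median of 49.02 CPM against 7.38 CPM in the other 7. P2ry1 correlated with Th at 0.42 in day-3 control cells, -0.01 in day-3 SNT cells, 0.64 in day-7 control cells and 0.31 in day-7 SNT cells. Th reached at most 8.27 CPM in day-7 control cells, and P2ry1 correlated with Calca at 0.63 there but at -0.61 in day-3 control cells.

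Among the receptors themselves, P2rx3 and P2rx5 ran against each other in every group, with rho of -0.68 and -0.38 in day-3 control and SNT cells and -0.71 and -0.64 at day 7. P2rx5 and P2rx6 ran together, at 0.65 and 0.46 at day 3 and 0.60 and 0.47 at day 7. P2ry14 joined the latter pair on the SNT side, with rho with P2rx5 of 0.56 at day 3 and 0.53 at day 7, while with P2rx3 it was -0.56 and -0.51. With P2rx6 it was 0.67 at day 3 but 0.03 at day 7, when most cells had P2rx6. In SNT cells these genes also varied with the total count of a cell. At day 3 and day 7 rho with it was 0.33 and 0.32 for P2rx5 and 0.35 and 0.33 for P2ry14. For P2rx6 it was 0.35 and -0.03, and for P2rx3 -0.32 and -0.40. The part of depth in these relations was not tested.

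**Figure D3:**
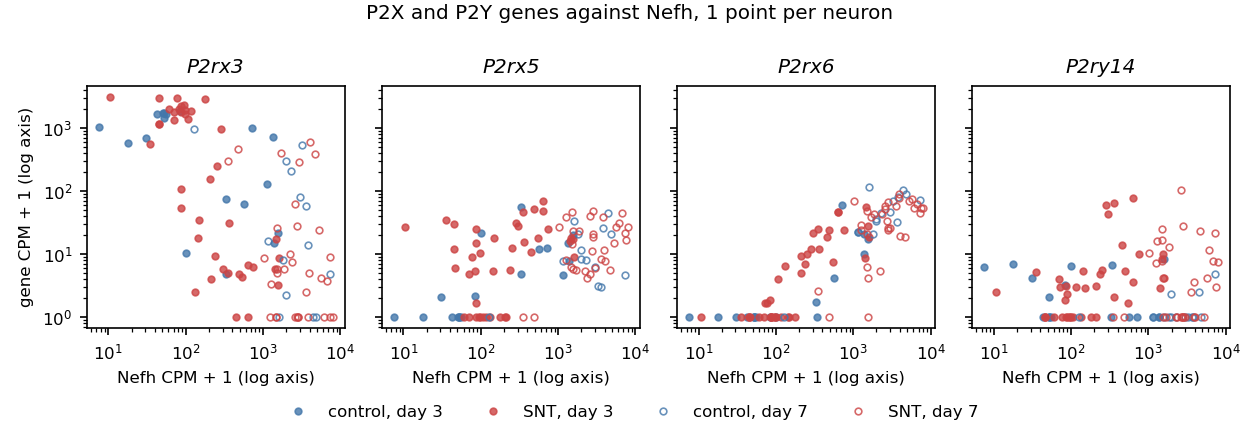
CPM + 1 of P2rx3, P2rx5, P2rx6 and P2ry14 against CPM + 1 of Nefh in single neurons, both axes on log scales. Points are cells, filled for day 3 and open for day 7, by side. P2rx6 climbs with Nefh, and the highest P2rx3 values lie at low Nefh.

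Atf3 was above 100 CPM in 30 of 41 day-3 SNT cells, in 12 of 33 day-7 SNT cells and in no control cell. All 5 day-3 SNT cells with P2ry14 above 10 CPM were above 100 CPM of Atf3 and also of Nefh, and all 5 had P2rx6 above 10 CPM. At day 7, 6 of the 9 P2ry14 cells were above 100 CPM of Atf3, and P2ry14 correlated with Atf3 at 0.55 across SNT cells, against -0.17 at day 3. P2rx3 had the reverse order, with rho of 0.28 at day 3 and -0.50 at day 7, and -0.05 and -0.72 in control cells. Of the Atf3-rich cells 17 of 30 had P2rx3 above 10 CPM at day 3 and 1 of 12 at day 7, and of the other SNT cells 10 of 11 and 9 of 21. Despite the positive rho at day 3, P2rx3 was thus above 10 CPM less often in the Atf3-rich cells, and its median was 103 CPM there and 249 CPM in the others.

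P2ry1 correlated with Atf3 at -0.40 in day-3 and -0.49 in day-7 SNT cells, and at 0.30 and -0.37 in control cells of these days. For P2ry2 the values were -0.24 and -0.45 in SNT cells and -0.04 and -0.41 in control cells. The day-3 median of P2ry2 was 1.87 CPM in the 30 Atf3-rich SNT cells and 17.4 CPM in the other 11, and that of P2ry1 was 0 and 4.07 CPM. At day 7, none of the 12 Atf3-rich cells had P2ry2 above 10 CPM, and 1 of 12 had P2ry1. The cells so divided also differed in Calca. At day 3 the median of Calca was 137 CPM in the 30 Atf3-rich SNT cells and 2852 CPM in the other 11. At day 7 Calca was above 100 CPM in 1 of the 12 Atf3-rich cells and in 10 of the other 21, and 6 of the 7 SNT cells with P2ry2 above 10 CPM were among these 10. The part of cell type in the relations with Atf3 was not tested.

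The genes most like each receptor were sought over the 59 kept day-3 cells for the 6 receptors above 10 CPM in at least 10 of them. Cells of both sides were pooled here, so a gene that differs between them adds to the rho. P2rx6 was most like Epn3 (rho 0.88), Lgi3 (0.87) and Cpne6 (0.87). P2rx3 was most like Avil, which encodes advillin (0.77), H13 (0.76) and Gnb4 (0.76), P2ry2 most like Cpne4 (0.74), Dock5 (0.67) and 3110043O21Rik (0.66), and P2rx5 most like Vat1l (0.71), Fam213b (0.67) and Map2 (0.65). P2ry1 was most like Rab4a (0.70), 8430419L09Rik (0.70) and Ttll7 (0.69), but among SNT cells alone these stood at 0.52, 0.51 and 0.59 and among control cells at 0.59, 0.76 and 0.56. P2rx4 was most like Hsdl1 (0.59), Anxa7 (0.56) and Htatip2 (0.56), with 0.52, 0.64 and 0.49 among SNT cells and 0.75, 0.53 and 0.73 among control cells. For P2rx6 the values within sides were 0.89, 0.90 and 0.85 in SNT and 0.88, 0.88 and 0.89 in control cells.

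The other genes of nucleotide signalling were taken from lists by function, and their counts of calls stand beside those of all 13509 genes tested, of which 1193 were called higher and 961 lower, 15.9% in either direction. With scaling by library size alone the balance turned, to 978 higher and 1265 lower. Of 8 other P2 receptor genes, 3 passed the filter in the pooled libraries and 1 was called, lower on the SNT side. This was P2ry12, a Gi-coupled ADP receptor, at 2.39, 5.22 and 1.497 CPM against 9.63, 19.1 and 12.4 CPM in control libraries. It fell by 2.10 on the log2 scale in the quasi-likelihood test of edgeR, Benjamini-Hochberg adjusted (SE 0.66, adjusted p = 0.0155), lower in 3 of 3 SNT libraries. The call was lost without the first SNT library (adjusted p = 0.0589 in the quasi-likelihood test of edgeR, Benjamini-Hochberg adjusted, log2 change -1.97, lower in 2 of 2 SNT libraries), without the third (0.0826, log2 change -1.74) and without the second control library (0.114, log2 change -1.76). In day-3 cells the mean of P2ry12 did not have the pooled direction, at 4.57 CPM in control and 4.58 CPM in SNT cells. The share above 10 CPM was lower on the SNT side, at 4 of 41 cells against 4 of 18 control cells. P2rx1, P2ry10 and P2ry13 were at 0 in all 6 pooled libraries.

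Of 10 genes of nucleotide breakdown 8 were tested, 6 were called lower on the SNT side and none higher. The median log2 change was -1.05 over the list and 0.02 over all genes tested. Acpp, which encodes the ectonucleotidase prostatic acid phosphatase of nociceptors, stood at 170, 206 and 180 CPM in SNT and 892, 957 and 949 CPM in control libraries. All 3 SNT libraries were far below the control libraries, and Acpp fell by 2.17 on the log2 scale. Nt5e, the ecto-5'-nucleotidase that makes adenosine from AMP, had means of 73.4 ± 10.1 CPM against 172 ± 8.34 CPM, and Entpd3, which hydrolyses ATP and ADP, 72.2 ± 13.1 CPM against 166 ± 9.77 CPM (SD, n = 3 each). Entpd1, Entpd2 and Alpl made up the other 3 genes, with means of 5.19, 12.7 and 9.40 CPM against 17.6, 28.5 and 30.9996 CPM.

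Acpp and Alpl were called under every alternative, while the calls of the other 4 genes were lost under some. Calls lower were 3 in place of 6 without the third SNT library, without the third control library, or with all libraries thinned to the smallest, where Entpd1 (-1.22), Entpd3 (-0.95) and Nt5e (-0.95) were not called. Entpd1, at a log2 change of -1.61, lost its call without the third SNT (-1.36) or the third control library (-1.54), Entpd3, at -1.03, without the second SNT (-0.89) or the third control library (-0.98), and Nt5e, at -1.07, without the third SNT library, where it was just inside the limit at -0.998. Entpd2 was the least firm, at a log2 change of -1.01, and lost its call without any single library except the first of the control side, with changes from -1.08 to -0.76. It was also not called with DESeq2, with limma, without a filter or with a replicate block. Enpp2, a gene of the same list at a log2 difference of 1.34, was called higher without the second control library alone, at 2.65, and Enpp1, with means of 11.5 CPM in SNT and 19.5 CPM in control libraries, was not called. In single cells the mean of Acpp was 928 CPM in day-3 control cells and 323 CPM in SNT cells, and 99.6 and 12.8 CPM at day 7. Nt5e was at 88.3 and 108 CPM at day 3 and at 28.9 and 2.66 CPM at day 7. At day 3 Nt5e, Entpd1 and Entpd2 thus had higher means on the SNT side, against the pooled direction, with Entpd1 at 3.998 and 7.252 CPM and Entpd2 at 7.65 and 16.3 CPM, past 2-fold.

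Of 8 genes of adenosine receptors and handling, 6 were tested, 3 called higher and 3 lower, all 6 against 15.9% of all genes tested. Adora1, the Gi-coupled adenosine receptor, fell from a control mean of 157 ± 21.9 CPM to 39.9 ± 11.1 CPM, and the nucleoside transporter gene Slc29a1 from 73.1 ± 14.9 CPM to 13.3 ± 1.32 CPM (SD, n = 3 each). Adk, adenosine kinase, fell from 917 ± 104 CPM to 319 ± 26.96 CPM. The Gs-coupled receptor genes rose: Adora2b from 7.317 ± 3.305 CPM to 25.4 ± 1.54 CPM, while Adora2a was listed at 0 in all 3 control libraries and at 10.8, 5.22 and 6.99 CPM in the SNT libraries. Slc29a2, another nucleoside transporter gene, rose from 14.1 ± 13.6 CPM to 55.8 ± 10.3 CPM. In day-3 cells Adora2a ran the other way, with means of 11.1 CPM in control and 5.35 CPM in SNT cells, whereas Slc29a2 stood at 6.97 and 42.2 CPM.

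Of 12 genes that couple P2Y receptors to G proteins and calcium, 11 were tested, 2 called higher and 2 lower, 4 of 11 against 15.9% of all genes tested, with a median log2 change of 0.05. Gnaq, the alpha subunit used by P2ry1 and P2ry2, stood at 118, 98.4 and 113 CPM in SNT and 415, 317 and 336 CPM in control libraries, and fell by 1.53 on the log2 scale. Plcb3, a phospholipase C gene, fell by 2.54 from 634 ± 74.6 CPM to 97.5 ± 3.187 CPM (SD, n = 3 each). Another phospholipase C gene, Plcb4, rose by 1.93 from 15.4 ± 5.29 CPM to 51.8 ± 4.13 CPM, and Itpr1, an IP3 receptor gene, by 2.29 from 5.92 ± 2.58 CPM to 25.3 ± 0.928 CPM. Of the Gi subunit genes Gnai1 was called lower without the second control library alone, at a log2 change of -1.05 against -0.79. Of the other genes with at least 10 CPM on a pooled side none was called: in SNT and control libraries the means were 87.6 and 84.0 CPM for Gna11, 68.6 and 74.2 CPM for Gnai2, 81.1 and 126.97 CPM for Gnai3, 17.97 and 15.7 CPM for Plcb1, and 13.5 and 27.6 CPM for Itpr3. In cells Gnaq had means of 398 CPM in control and 187.5 CPM in SNT cells at day 3 but 177 and 172.5 CPM at day 7, and Plcb4 15.8 and 20.2 CPM at day 3 and 44.3 and 45.3 CPM at day 7. Plcb3 was lower and Itpr1 higher on the SNT side at both days, Plcb3 at 614 and 237 CPM at day 3 and 219 and 43.9 CPM at day 7, and Itpr1 at 5.06 and 37.6 CPM and at 9.02 and 67.7 CPM.

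Of 3 genes for ATP release, 2 were tested and neither was called. The channel gene Panx1 had means of 89.5 ± 24.6 CPM in SNT and 66.9 ± 14.5 CPM in control libraries, with overlap, and Panx2 19.02 ± 1.13 CPM and 17.3 ± 8.92 CPM. Panx1 had an adjusted p = 0.0457 in the quasi-likelihood test of edgeR, Benjamini-Hochberg adjusted, but its log2 difference of 0.61 was under the limit, and 2 of 3 SNT libraries were above all control libraries. Slc17a9, the vesicular nucleotide transporter gene, was listed at 0 in all 6 pooled libraries. Panx1 was above 10 CPM in all 106 cells.

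Injury genes mark the sides: Atf3, Jun, Sprr1a, Sox11, Gal, Npy, Gap43 and Ecel1 were all called higher in the pooled SNT libraries. Atf3 stood at 1619, 1372 and 1409 CPM in the SNT libraries and at 8.25, 21.5 and 10.6 CPM in the control libraries. In cells its mean was 17.7 CPM in control and 1476 CPM in SNT cells at day 3, and 6.57 and 409.7 CPM at day 7. Under the column names Atf3 was thus high in the pooled SNT libraries, as it was in the SNT cells.

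Markers of cell types moved with the sides in the pooled libraries, and their part in the receptor results was not tested. Of 5 genes of non-peptidergic nociceptors 4 were called lower, and their summed level was 74.7, 81.8 and 90.3 CPM in SNT against 1756, 1607 and 1762 CPM in control libraries. Mrgprd, the most abundant of them, fell from a mean of 1011 CPM to 1.07 CPM. The fall of Mrgprd was far greater than that of P2rx3, which kept 298 of 782 CPM.

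C-LTMR markers were called lower in 3 of 3 genes, with sums of 65.8, 121 and 85.8 CPM against 389, 533 and 462 CPM, and Th as the most abundant. Th, the marker highest in the 2 day-3 control cells richest in P2ry1, fell by 2.27 on the log2 scale and P2ry1 fell by 2.79. Markers of large myelinated neurons were called higher in 2 of 5 genes, with sums of 973, 898 and 919.8 CPM against 672, 648 and 703 CPM. Nefh, their most abundant, rose by 1.19 on the log2 scale, whereas Ntrk2 was lower, at means of 134 CPM in SNT and 256 CPM in control libraries, without being called (log2 difference -0.78).

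Itch markers summed to 119.9, 136 and 126 CPM against 187, 206 and 185.5 CPM, with Mrgpra3 the most abundant, Sst at 0 in all libraries, and 1 gene of 2 tested called higher. Markers of peptidergic neurons summed to 1735, 1602 and 1848 CPM against 2199, 1813 and 2105.5 CPM, Calca the most abundant, with 1 of 5 called higher and 2 lower. Of 5 general neuron markers, Tubb3, the most abundant, was called higher, and the sums were 13215, 13345.5 and 14909.5 CPM against 7277, 8389 and 7751 CPM. The markers did not move alike. Tubb3 had means of 9157 CPM in SNT and 3102 CPM in control libraries, and Uchl1 was higher too, at 2410 against 1729 CPM. Snap25 was lower, at 1143 against 1747 CPM, and so was Rbfox3, at 62.8 against 122.8 CPM. Prph overlapped between the sides, and only Tubb3 was called. All 5 markers were found in the pools of both sides. The sums of glial markers, given next, were above these sums in the control libraries and below them in the SNT libraries. Sums of chosen markers do not give the share of neuron RNA in a pool.

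Glial markers, led by Apoe, summed to 6156, 6951 and 6573 CPM against 12636, 15313 and 14815.5 CPM, with 5 of 10 called lower. Single cells held them too, at median sums of 3769.7 and 3813 CPM in day-3 control and SNT cells and 5221 and 1499 CPM at day 7. Immune markers were near 0, at 9.77, 10.5 and 14.4 CPM against 0.261, 4.77 and 0 CPM, led by Csf1r, with 2 of 3 tested called higher and Ptprc at 0 in all 6 libraries. Of erythrocyte markers 1 was tested and not called, with sums of 10.8, 6.96 and 12.5 CPM against 0, 10.7 and 3.55 CPM, Hba-a1 the most abundant, and Hbb-b2 and Hba-a2 at 0. None of 3 tested vascular and fibroblast markers was called, with Dcn the most abundant and sums of 19.1, 33.9 and 23.5 CPM against 17.9, 21.5 and 24.8 CPM.

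The 8 genes lie on 6 chromosomes in the GENCODE M21 annotation of GRCm38, whereas the deposited counts were made on mm9. P2rx2 (chr5:110339812-110343212, strand −) and P2rx4 (chr5:122707544-122729738, strand +) are 12.4 megabases apart, and P2ry1 (chr3:61002795-61008982, strand +) and P2ry14 (chr3:59113855-59153618, strand −) 1.85 megabases. P2rx3 is at chr2:84998583-85037462 (strand −), P2rx5 at chr11:73160421-73172685 (strand +), P2rx6 at chr16:17561885-17577800 (strand +) and P2ry2 at chr7:100996568-101012866 (strand −). The neighbours P2ry1 and P2ry14 had opposite directions in day-3 cells.

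4 of the 8 genes overlap a gene on the opposite strand, and the labels do not say that counting used strand. P2rx6 shares 554 exon bases with Slc7a4, which had pooled means of 29.3 CPM in control and 13.2 CPM in SNT libraries, and P2rx3 shares 51 with Ssrp1, at 82.9 and 57.1 CPM. P2ry1 shares 992 exon bases with the antisense gene Gm37035, which has no entry in the tables. P2ry14 lies within Med12l, at 59.0 and 31.7 CPM, with no shared exon bases. The share of reads from these genes in the receptor counts was not tested.

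Promoter sequences from RefSeq (GRCm38.p6) were matched for 5 of the 8 genes, P2rx4, P2rx6, P2ry1, P2ry2 and P2ry14, with 9 starts among them, and P2rx2, P2rx3 and P2rx5 were not matched. The 250 bases before each start were searched on both strands for the AP-1 letters TGACTCA, which read TGAGTCA on the other strand, and for the CRE letters TGACGTCA, since Atf3 belongs to the family of factors known to bind such letters. Neither of these strings contains the other. TGACTCA was found in 4.46% of all 32851 promoters of this length, 1466 in number, and TGACGTCA in 1.55%, 508 in number. Of the 9 windows 1 held TGACTCA, the first start of P2ry14, with 195 bases from the motif to the start, and none held TGACGTCA. It is shown beside the window of P2ry1, its neighbour with the opposite direction in day-3 cells, which held neither. The capitals mark TGACTCA, and G and C made up 50% of the bases for P2ry14 and 70.8% for P2ry1. A match is a description of letters, and no match says only that these letters are not in this window.
P2ry14 chr3:59153493-59153742, strand −: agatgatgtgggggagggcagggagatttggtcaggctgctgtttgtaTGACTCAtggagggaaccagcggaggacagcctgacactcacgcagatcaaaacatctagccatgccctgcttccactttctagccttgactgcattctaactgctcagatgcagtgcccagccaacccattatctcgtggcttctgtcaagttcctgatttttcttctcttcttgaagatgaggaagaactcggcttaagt
P2ry1 chr3:61002535-61002784, strand +: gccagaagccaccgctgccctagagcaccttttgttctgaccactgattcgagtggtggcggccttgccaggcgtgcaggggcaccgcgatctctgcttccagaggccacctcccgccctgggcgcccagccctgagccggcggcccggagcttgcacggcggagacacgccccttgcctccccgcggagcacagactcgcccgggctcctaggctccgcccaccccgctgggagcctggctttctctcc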

How the data were processed

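Hand-picked single DRG neurons and pools of them were sequenced after Smart-seq2. The authors called bases with CASAVA 1.8.2, aligned to mm9 with Bowtie2 and ran RSEM, and the deposited values are expected counts, with totals per library from 223967 to 2003817. The members and gene lists were chosen with earlier results of these data known. CPM is a value divided by its column total, times 1000000. Symbols differ between the tables for 27 genes, and those of the table without outliers were used.

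Pooled counts were rounded and fitted with edgeR 4.0.16 (TMM, quasi-likelihood test, mean of at least 1 CPM, Benjamini-Hochberg over all genes tested) in R 4.3.3, with calls at a log2 change beyond 1 and an adjusted p under 0.05. limma 3.58.1 and DESeq2 1.42.0 were alternatives, beside RLE factors, library size alone, other filters, a replicate block, left-out libraries and thinning. The pipeline was tested on simulated data. Cells were summarised in Python 3.11.15 (numpy 2.4.6, pandas 2.3.3, scipy 1.17.1, matplotlib 3.10.9) as log2 ratios of mean CPM + 1 with exact binomial intervals at 95%, and alternatives changed the pseudocount, mean, cells, depth, detection level or sex. Exon lengths came from GENCODE M21.

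The rule for naming genes covered the members, list genes called or with at least 10 CPM on a pooled side, 1 marker per cell type, and the 3 genes most correlated with each member. Other genes, such as those at 0 in all libraries, those overlapping a member and further markers, were chosen after their values were seen. The marker level of 100 CPM was chosen after the values were seen.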

Additional observations from a re-analysis of the deposited data

Results flagged for a closer look

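The 11 day-3 cells that the deposited table without outliers leaves out were not used in the comparisons above. Among the 7 SNT cells of this set, P2rx4 reached 133.5 CPM, above the highest kept control cell at 68.5 CPM. P2ry14 reached 7.699 CPM there, just above the highest kept control cell at 7.312 CPM. These values stood out as signals in unused cells above the level of kept control cells. Among the 4 unused control cells, however, P2rx4 also reached 98.2 CPM, and its mean was 59.96 CPM there and 63.6 CPM in the unused SNT cells. The P2ry14 value rests on 3 counts. The unused SNT cells were shallow, with a median total of 412693 counts.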

How the results depend on the processing

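In pooled neurons 3 members were called under all 14 alternatives, and they were the same 3. The number of genes called went from 1649 with a filter of 10 CPM to 2243 with library size alone, from 1884 to 2148 when each library was left out in turn, and was 2154 as reported. With the library number as a replicate block it was 2008, with 3 members. The libraries of the sides share only a number: the correlation of their deviations was 0.13, 0.01 and -0.02 for equal numbers and -0.13 to 0.12 for others. Over all alternatives the log2 change stayed between -1.39 and -1.20 for P2rx3 (adjusted p 1.9e-22 to 2e-06), between 1.58 and 1.98 for P2rx5 (0.000301 to 0.0126) and between -3.28 and -2.64 for P2ry1 (1.2e-12 to 2.3e-05), each in edgeR's quasi-likelihood test, limma or DESeq2 with Benjamini-Hochberg adjustment and in all SNT libraries.

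Of the 5 members that were not called, P2rx2 kept its sign and the other 4 changed sign under some alternatives. With library size alone P2rx4 moved to -0.0696 and P2rx6 to -0.0943, and after thinning P2rx4 moved to -0.27 and P2ry14 to -0.26. Leaving out a library gave -0.19 to 0.39 for P2rx4, -0.14 to 0.30 for P2rx6, -0.64 to 0.22 for P2ry2, -0.50 to 1.63 for P2ry14 and -2.19 to -1.19 for P2rx2. P2rx2 in day-3 cells turned to 0.49 without the highest cell of each side. The cause was not tested.

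Of 8 members at day 3, 3 passed 2-fold in cells: P2rx2, P2ry1 and P2ry14. Without the highest cell of each side it was again 3, with P2rx5 in place of P2rx2. With a pseudocount of 10 it was 1, P2ry1, and with medians in place of means 5: P2rx3, P2rx5, P2ry1, P2ry2 and P2ry14. At day 7, 2 passed: P2ry2 and P2ry14. With a pseudocount of 0.1 P2rx2 was added. With a pseudocount of 10 it was 1, P2ry2, with medians 4: P2rx3, P2ry1, P2ry2 and P2ry14, and in female mice alone 4: P2rx2, P2rx3, P2ry2 and P2ry14. The cause was not tested. With cells thinned to the smallest total, the day-3 log2 ratio moved from 0.30 to 0.08 for P2rx6, from 1.57 to 1.17 for P2ry14 and from -1.12 to -1.19 for P2rx2. With medians the day-3 log2 ratio moved from 0.15 to -2.18 for P2rx3 and from -1.12 to 0 for P2rx2.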
